A study of Rattus norvegicus with 8 samples.

Results

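The nucleoside diphosphate kinases are the enzymes that pass a phosphate from one nucleoside triphosphate, usually ATP, to another nucleoside diphosphate, and 6 of their genes were followed here: Nme1, Nme2, Nme3, Nme4, Nme6 and Nme7. They were chosen from the measured difference between the sample groups described next: Nme3 was selected on its much lower values in the samples labelled Lv-Piezo1, and the other genes were taken as its family. Of the 6 genes, 5 had a row among the 31699 rows of the gene matrix, all 5 were among the 13103 rows kept by a minimum of 1 for the average TPM over the 8 samples (TPM, a length-corrected transcript abundance), and Nme4 matched no row and was not analysed here. Because the same contrast chose the members, their values are given as a description and no p-value is given for them.

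The samples were annulus fibrosus cells (AFCs), the cells of the fibrous ring of the intervertebral disc, isolated from Sprague Dawley rats and measured by RNA-seq. Each isolation mixed cells from 8 animals, so single animals cannot be followed. All cells were exposed to lentivirus over 24 h (multiplicity of infection 20) and were put under cyclic mechanical stretch (CMS) of 20% elongation at 0.5 Hz for 36 h. The 4 samples labelled Lv-Ctrl carried the lentiviral vector pLVX-shRNA-Puro, and the 4 samples labelled Lv-Piezo1 carried pLVX-shRNA-Puro-Piezo1, which encodes a short hairpin RNA against the mechanically gated ion channel Piezo1. There was no unstretched group and no group without virus among the samples. TPM adds up to an equal total for each library and holds no record of sequencing depth, so how precise a value is can be judged from the scatter among the 4 replicates alone.

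Most nucleoside triphosphates other than ATP are made by these kinases, which supply GTP, CTP and UTP and their deoxy forms for nucleic acid synthesis, signalling and membrane remodelling. Nme1 and Nme2 are the main cytosolic enzymes, Nme3 is anchored at the outer mitochondrial membrane and takes part in mitochondrial fusion, Nme4 and Nme6 are mitochondrial, and Nme7 belongs to the gamma-tubulin ring complex that nucleates microtubules.

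Piezo1, the target of the hairpin, was read first as a check of the labels. Its TPM was 31.1, 33.0, 26.7 and 29.5 in Lv-Ctrl replicates 1 to 4 and 38.1, 37.7, 40.2 and 41.4 in Lv-Piezo1 replicates 1 to 4. All samples labelled Lv-Piezo1 therefore lay above all samples labelled Lv-Ctrl, against the label (30.1 ± 2.67 and 39.4 ± 1.75 TPM, SD, n = 4 each; two-sided exact permutation test, p = 0.029, which is the lowest this design can give). The log2 fold change on the log2(TPM + 1) scale was 0.38 (SE 0.06, limma, Benjamini-Hochberg adjusted across the tested genes, adjusted p = 8.6e-04), and 0.21 after median-ratio scaling, with an adjusted p of 0.0036 (limma). Groups are therefore named by their labels, and every direction below compares the Lv-Piezo1 label with the Lv-Ctrl label.

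The annulus label was compared with marker genes. Of 12 annulus fibrosus and fibroblast markers, 11 had a mean of at least 1 TPM in both groups, with a summed level of 10140 to 11631 TPM in the Lv-Ctrl samples and 16715 to 18120 TPM in the Lv-Piezo1 samples, and Col1a1 was the most abundant. The markers did not move one way: Col1a1, Col1a2 and Fn1 rose, Fn1 from 1940 ± 242 to 4908 ± 297 TPM, whereas Dcn fell from 1456 ± 69.3 to 519 ± 14.9 TPM and Pdgfra from 194 ± 18.9 to 74.8 ± 4.85 TPM (SD, n = 4 each; log2 fold changes -1.49 and -1.36, limma, adjusted p = 7.9e-09 and 6.6e-07). Fmod and Mkx also fell, by 0.99 and 0.76 on the log2 scale (limma, adjusted p = 5.5e-07 and 1.0e-04). Scx, Col3a1 and Thy1 also rose, by 0.89, 0.48 and 0.35 (limma, adjusted p = 7.7e-04, 1.2e-04 and 2.2e-05). The groups of Lum overlapped. Tnmd, the remaining marker, had a mean of 0 TPM in Lv-Ctrl and 0.020 TPM in Lv-Piezo1. The notochord markers Shh and Tbxt, the macrophage marker Adgre1 and the endothelial marker Emcn were listed at 0 in all 8 samples. Other markers of these lists had values above 0: the macrophage list summed to 21.5 to 22.9 TPM in Lv-Ctrl and 36.02 to 41.72 TPM in Lv-Piezo1, with Cd14 the most abundant, and Cd68 had 0.955 ± 0.899 and 12.3 ± 0.901 TPM (SD, n = 4 each) without overlap. Cd68 passed the filter on low values only through Lv-Piezo1, so no test is given for it, nor for Comp, Rsph1 and Spink8 below, which passed in the same way. Cd14 had 20.9 ± 0.324 and 25.8 ± 1.91 TPM and passed on the deposited values (limma, adjusted p = 0.0015) but not after median-ratio scaling (adjusted p = 0.16). Ptprc, Csf1r and Itgam of the same list had means of at most 0.243 TPM in either group. In the nucleus pulposus and notochord list, which summed to 5.29 to 5.98 TPM in Lv-Ctrl and 7.05 to 8.50 TPM in Lv-Piezo1, Cdh2 rose from 2.98 ± 0.325 to 4.61 ± 0.512 TPM (SD, n = 4 each; limma, adjusted p = 0.0018), and Krt8 had 2.56 ± 0.290 and 3.17 ± 0.534 TPM with overlapping groups. The 6 smooth muscle and pericyte markers, of which 5 had at least 1 TPM in both groups and none was listed at 0 throughout, summed to 312 to 321 TPM in Lv-Ctrl and 4323 to 4500 TPM in Lv-Piezo1, with Tagln the most abundant. The cartilage-like inner annulus list, of which 2 of 6 genes had at least 1 TPM in Lv-Ctrl and 3 in Lv-Piezo1, summed to 33.1 to 39.6 TPM and 52.8 to 56.4 TPM. Its most abundant gene, Acan, rose from 31.6 ± 2.95 to 47.1 ± 1.82 TPM (SD, n = 4 each; log2 fold change 0.57, limma, adjusted p = 8.7e-05), and Comp had 0.738 ± 0.216 and 2.86 ± 0.221 TPM. The endothelial list summed to 0.340 to 0.590 TPM in Lv-Ctrl and 0.390 to 0.620 TPM in Lv-Piezo1, with Vwf the most abundant. The ciliated cell list summed to 2.36 to 2.88 TPM and 3.28 to 3.79 TPM, with Ccdc39 its most abundant gene in Lv-Ctrl and Rsph1 in Lv-Piezo1, where Rsph1 had 1.68 TPM against 0.670 TPM in Lv-Ctrl. Of these 7 lists, all but the endothelial one thus had sums that did not overlap between the groups on the deposited values. Single genes did not overlap in 54.2% of all genes tested, with a median log2 fold change of 0.14 on these values. The sums were not scaled, so nothing is read from this count. The part of these lists in the values of the kinases was not tested. In bulk samples, fewer cells of a type and less RNA per cell cannot be told apart.

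Nme3 was the kinase that separated the groups most widely. Its TPM was 41.5, 38.3, 28.5 and 46.6 in Lv-Ctrl replicates 1 to 4, and it was listed at 0 in Lv-Piezo1 replicates 1 and 3, at 0.21 TPM in replicate 2 and at 0.34 TPM in replicate 4. All 4 Lv-Ctrl samples thus held Nme3 at a moderate level, and no Lv-Piezo1 sample came near them. The Lv-Ctrl mean was 38.7 ± 7.63 TPM (SD, n = 4). The log2 fold change was -5.12 (SE 0.16) with a pseudocount of 1 and -7.64 with a pseudocount of 0.1, so its size depends on the constant added, while the separation of the groups does not. Since TPM keeps no depth, a listed 0 does not say how many reads could have been seen.

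Among all 13103 tested genes ranked from the lowest log2 fold change upward, Nme3 held rank 2. The gene at rank 1 had no symbol and a log2 fold change of -5.69, and Gpha2, a glycoprotein hormone subunit, followed Nme3 at -5.02. The order of this pair turned when 1 of 2 samples was left out: Nme3 and Gpha2 were at -5.02 and -5.03 without Lv-Ctrl replicate 4, and at -5.058 and -5.063 without Lv-Piezo1 replicate 1, which put Nme3 at rank 3. Fam111a, which encodes a protease of the cell nucleus, was at rank 5 with -4.42. These are values beside that of Nme3 in the ranking that brought it to attention.

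Nme2 was the most abundant kinase of the family. Its TPM was 350, 356, 399 and 348 in Lv-Ctrl replicates 1 to 4 and 388, 398, 387 and 351 in Lv-Piezo1 replicates 1 to 4. The groups overlapped (363 ± 24.4 and 381 ± 20.6 TPM, SD, n = 4 each), and the log2 fold change was 0.07 (SE 0.06) on the deposited values and -0.11 after median-ratio scaling, so that it has no settled direction. Without Lv-Ctrl replicate 3 it was 0.12, and without Lv-Piezo1 replicate 4 it was 0.11.

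Nme1, the other main cytosolic enzyme and known as a suppressor of metastasis, came next. Its TPM was 137, 122, 139 and 119 in Lv-Ctrl replicates 1 to 4 and 109, 115, 112 and 102 in Lv-Piezo1 replicates 1 to 4. Every Lv-Piezo1 sample lay below every Lv-Ctrl sample (129 ± 10.2 and 110 ± 5.41 TPM, SD, n = 4 each), with a log2 fold change of -0.23 (SE 0.06), and of -0.41 after median-ratio scaling. Nme1 and Nme2 are neighbouring genes of similar sequence. Reads may have been shared between them, which was not tested, so both levels are uncertain. The ratio of Nme1 to Nme2 within a sample, which no scaling of whole samples can change, was 0.342 to 0.391 in the Lv-Ctrl samples and 0.280 to 0.292 in the Lv-Piezo1 samples, without overlap.

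The mitochondrial kinase Nme6 had 13.3, 13.4, 14.0 and 17.6 TPM in Lv-Ctrl replicates 1 to 4 and 15.1, 17.1, 15.5 and 14.2 TPM in Lv-Piezo1 replicates 1 to 4. The groups overlapped, and the log2 fold change of 0.09 (SE 0.09) changed sign to -0.08 after median-ratio scaling. It was 0.18 without Lv-Ctrl replicate 4, and 0.051, 0.055 and 0.045 without Lv-Ctrl replicate 1, Lv-Ctrl replicate 2 and Lv-Piezo1 replicate 2. Nme7 of the gamma-tubulin ring complex had 13.5, 14.0, 13.7 and 13.4 TPM in Lv-Ctrl replicates 1 to 4 and 13.3, 13.2, 13.0 and 11.6 TPM in Lv-Piezo1 replicates 1 to 4. Its groups did not overlap, although the closest samples differed by little, and the log2 fold change was -0.09 (SE 0.05), -0.26 after median-ratio scaling and -0.049 without Lv-Piezo1 replicate 4.

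**Figure D1:**
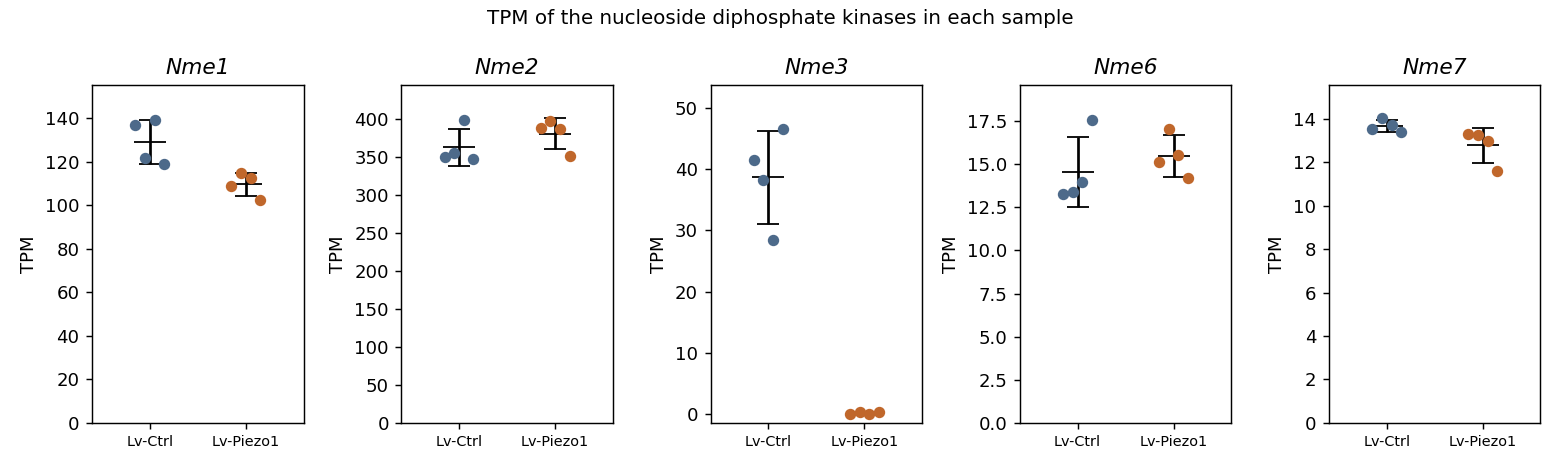
TPM of Nme1, Nme2, Nme3, Nme6 and Nme7 in each of the 4 Lv-Ctrl and 4 Lv-Piezo1 samples, on linear axes with their own range; points are samples, the wide tick is the group mean and the bars are 1 SD. Nme3 lies between 28.5 and 46.6 TPM in Lv-Ctrl and at no more than 0.34 TPM in Lv-Piezo1, while the Nme2 and Nme6 groups overlap.

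The call used here was an adjusted p below 0.05 and a log2 fold change of 1 or more in size, and 2.76% of the tested genes were called lower. Set against this, Nme3 alone of the 5 members had a log2 fold change of that size, lower in Lv-Piezo1. Nme3 passed the filter on low values only through Lv-Ctrl, and no test is given for it. No member was called higher, against 4.91% of the tested genes. Nme1, Nme3 and Nme7, 3 of the 5 members, had groups without overlap, as was found for 54.2% of all genes tested. Nothing is read from these counts, because the contrast itself chose the genes. Across the tested genes 644 were called higher and 361 lower, which became 504 and 477 after median-ratio scaling and 463 and 485 after quantile normalization. The median log2 fold change of all tested genes was 0.14 on the deposited values, so the deposited values of Nme2 and Nme6, at 0.07 and 0.09, lay below the median gene, and median-ratio scaling moved that median to -0.02.

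The order of levels can be compared between genes because TPM is expressed per transcript length. In the Lv-Ctrl samples the order was Nme2, Nme1, Nme3, then Nme6 and Nme7, whose values overlapped. In the Lv-Piezo1 samples it was Nme2, Nme1, Nme6, Nme7 and last Nme3, with no overlap between neighbours in the order. Nme3 thus passed from the third to the last place, while Nme2 and Nme1 led the order in both groups.

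The summed TPM of the 5 kinases was 555, 543, 595 and 544 in Lv-Ctrl replicates 1 to 4 and 526, 543, 528 and 480 in Lv-Piezo1 replicates 1 to 4. The means were 559 ± 24.2 and 519 ± 27.4 TPM (SD, n = 4 each), and the highest Lv-Piezo1 sample, at 543.16 TPM, lay just under the lowest Lv-Ctrl sample, at 543.20 TPM. Without Nme3 the sums were 520 ± 31.1 and 519 ± 27.5 TPM, a difference of -1.46 TPM on the deposited values that turned to 13.7 TPM without Lv-Ctrl replicate 3 and to 11.8 TPM without Lv-Piezo1 replicate 4. After median-ratio scaling the difference of the sum was -107 TPM with Nme3 and -66.6 TPM without it, in place of -40.1 TPM with it on the deposited values. The share of Nme2 in the sum was 64.9% ± 1.82 in Lv-Ctrl and 73.4% ± 0.325 in Lv-Piezo1, and that of Nme1 was 23.1% ± 1.21 and 21.1% ± 0.296 (SD, n = 4 each). Nme3 made up 4.80% to 8.57% of the sum in the Lv-Ctrl samples and at most 0.0709% in the Lv-Piezo1 samples.

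Other genes of the family were at low levels. Nme5, known from the testis and from cilia, had 0.480 ± 0.0440 TPM in Lv-Ctrl and 0.408 ± 0.132 TPM in Lv-Piezo1 (SD, n = 4 each), and Nme8, also a gene of cilia and sperm, was listed at 0 in all 8 samples. Rp2, which carries a kinase-like domain and acts on the small GTPase Arl3, had 4.68 ± 0.623 and 4.70 ± 0.448 TPM (SD, n = 4 each), with overlapping groups and a log2 fold change of 0.01 (limma, adjusted p = 0.95), or -0.14 after median-ratio scaling. Nme9 matched no row and was not analysed here.

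The genes on either side of Nme3 on the chromosome, in the RefSeq gene order of GRCr8, had other values. Of the 5 protein-coding genes on each side, all 10 had a row, 9 were tested and 2 were called, both higher, where 4.91% of all tested genes were called higher and 2.76% lower. Their log2 fold changes ran from -0.12 to 1.17, so none came near that of Nme3. Next to it on one side, Mrps34, a protein of the mitochondrial ribosome, had 60.5 ± 4.18 TPM in Lv-Ctrl and 55.4 ± 3.10 TPM in Lv-Piezo1 (SD, n = 4 each; log2 fold change -0.12, SE 0.06, limma, adjusted p = 0.095). It passed after median-ratio scaling, at -0.30, and after quantile normalization, at -0.22 (adjusted p = 0.011 and 0.016, limma). Without Lv-Ctrl replicate 3 the log2 fold change of Mrps34 was -0.078 and did not pass (adjusted p = 0.19, limma). On the other side, Mapk8ip3, a scaffold of the JNK pathway and of axonal transport, rose from 33.1 ± 2.63 to 75.4 ± 2.82 TPM (SD, n = 4 each; log2 fold change 1.17, SE 0.06, limma, adjusted p = 4.1e-07). Ift140, a protein of ciliary transport, rose from 6.40 ± 0.653 to 15.1 ± 1.21 TPM (SD, n = 4 each; log2 fold change 1.13, SE 0.08, limma, adjusted p = 3.8e-06). After median-ratio scaling both lay just under the fold threshold, Mapk8ip3 at 0.99 and Ift140 at 0.96. Eme2 and Jpt2 also rose, at 0.58 and 0.59 (limma, adjusted p = 1.3e-05 and 1.1e-04), and still passed after the scaling, at 0.40 and 0.41. Nubp2 and Spsb3, at 0.34 and 0.22, passed on the deposited values but not after the scaling. Cramp1, at 0.22, passed on neither, and Tmem204, at -0.079, passed only after the scaling, at -0.25.

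**Figure D2:**
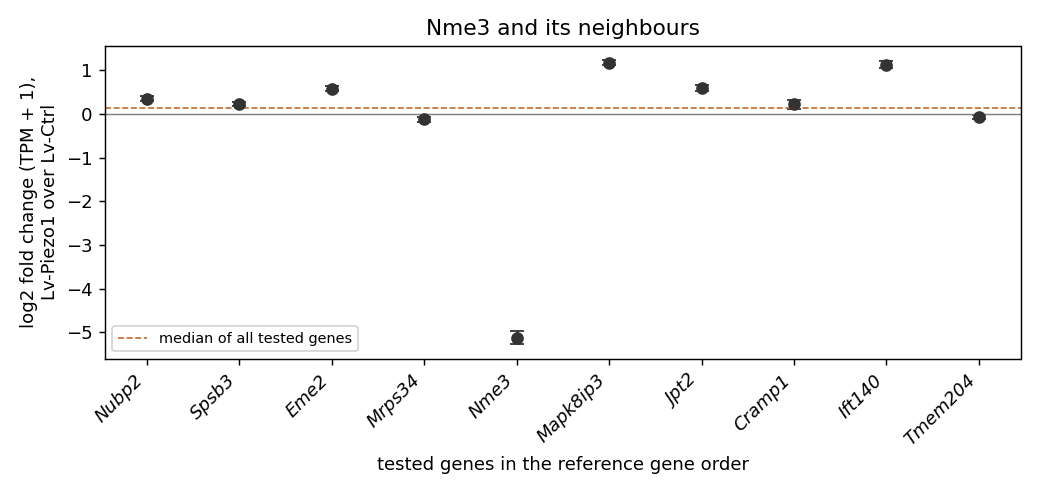
Log2 fold change on the log2(TPM + 1) scale, Lv-Piezo1 over Lv-Ctrl, of Nme3 and its tested neighbours in the GRCr8 gene order; bars are 1 SE and the dashed line is the median of all tested genes, 0.14. Nme3 lies at -5.12 and its neighbours between -0.12 and 1.17.

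Beside the other members, Mbtd1, next to Nme2, had 4.24 ± 0.628 and 4.57 ± 0.402 TPM, and Pgap6, next to Nme4, had 5.68 ± 0.984 and 6.93 ± 0.702 TPM (SD, n = 4 each). Spink8, a protease inhibitor gene next to Nme6, had means of 0.0875 and 4.28 TPM (log2 fold change 2.28, with no test given), and it lay higher in all 4 Lv-Piezo1 samples. It was listed at 0 in 2 of the 4 Lv-Ctrl samples and was kept among the tested genes through its Lv-Piezo1 values, and with a pseudocount of 0.1 its log2 fold change was 4.71. Atp1b1, a subunit of the sodium pump next to Nme7, rose from 66.8 ± 3.40 to 103 ± 4.23 TPM (SD, n = 4 each; log2 fold change 0.62, SE 0.05, limma, adjusted p = 4.8e-06). Mbtd1 and Pgap6 did not pass (limma, adjusted p = 0.46 and 0.090). On the other side of Nme6, Camp had 0.307 ± 0.202 and 0.375 ± 0.331 TPM and was not tested, and on the other side of Nme7, Blzf1 had 7.94 ± 0.597 and 7.91 ± 1.08 TPM (SD, n = 4 each; limma, adjusted p = 0.94).

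The promoters of Nme3 and Nme2 are printed because they belong to the member with the widest separation and to the member of the highest level, whose groups overlapped. The sequences are the 250 bases before the gene start in RefSeq, build GRCr8, 5′ to 3′ on the strand of the gene, and all 6 member genes matched the table. Capitals mark GGGCGG, the core of the GC box, and its reverse complement CCGCCC. This motif was present on either strand in 30.5% of the 33469 windows of 250 bases, CCAAT or its reverse complement in 34.0%, and TATAAA or its reverse complement in 12.9%.
Nme3, chr10:14421672-14421921, plus strand: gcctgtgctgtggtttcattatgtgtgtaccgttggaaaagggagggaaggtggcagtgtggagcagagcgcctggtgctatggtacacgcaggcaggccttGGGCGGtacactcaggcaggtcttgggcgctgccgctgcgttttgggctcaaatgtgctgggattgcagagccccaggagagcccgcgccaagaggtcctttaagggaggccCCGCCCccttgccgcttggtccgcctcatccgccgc
Nme2, chr10:79400419-79400668, minus strand: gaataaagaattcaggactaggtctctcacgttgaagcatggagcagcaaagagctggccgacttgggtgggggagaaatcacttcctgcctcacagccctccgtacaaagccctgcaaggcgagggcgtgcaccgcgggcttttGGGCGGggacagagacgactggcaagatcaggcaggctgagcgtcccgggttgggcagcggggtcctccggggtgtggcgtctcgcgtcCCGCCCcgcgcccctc
Both windows held GGGCGG or its reverse complement 2 times, and neither held CCAAT or TATAAA on either strand. The GC content was 63.2% for Nme3 and 64.4% for Nme2, against a median of 51.2% over all windows. The matches are a description of these letters only.

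Among the tested genes with a symbol, those whose profile over the 8 samples was most like that of Nme3 were Gpha2, Fam111a, Il1rl1, Clic2 and Gpr83. Likeness was the root mean square difference between centred log2(TPM + 1) values over the 8 samples, which ran from 0.29 for Gpha2 to 0.81 for Gpr83. For Nme3 this measure is dominated by the group difference that chose it. The 5 genes held ranks 3, 5, 6, 7 and 8 from the largest fall, so they repeat that ranking. Within Lv-Ctrl, replicate 3 held the lowest Nme3 value, 28.5 TPM, and the highest Gpha2 value, 425 TPM. Gpha2 had 390 to 425 TPM in Lv-Ctrl and 9.57 to 12.6 TPM in Lv-Piezo1. Il1rl1, the receptor of interleukin-33, had 323 to 508 TPM in Lv-Ctrl and 27.9 to 35.6 TPM in Lv-Piezo1. Neither was listed at 0 in any Lv-Piezo1 sample.

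The other enzymes and partners of nucleotide supply were read from 9 lists with 105 genes, of which 91 rows were tested. Of these, 48 passed the adjusted p in the higher direction and 13 in the lower direction, while 30 did not pass, against 41.9% and 16.3% of all tested genes in the higher and lower direction. With the fold threshold 4 were called higher and 0 lower, where 4.91% of all tested genes were called higher and 2.76% lower. The median log2 fold change was 0.17, close to the 0.14 of all tested genes, and after median-ratio scaling 28 passed higher and 25 lower, against 26.7% and 29.2% of all tested genes after that scaling. The counts of each list below stand beside these same shares of all tested genes.

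Deoxynucleotide supply, the genes that make and clear the precursors of DNA, stood highest among these lists by its median. Of 16 tested genes 13 passed in the higher direction, 2 in the lower direction and 1 did not pass, with a median log2 fold change of 0.42, and after median-ratio scaling 10 passed higher and 2 lower with a median of 0.26. The 13 include Samhd1, named after its values were seen, a hydrolase of deoxynucleotides with 0.888 TPM in Lv-Ctrl and 2.65 TPM in Lv-Piezo1, which passed the filter on low values only through Lv-Piezo1. Shmt1, a cytosolic enzyme that feeds folate carriers for thymidylate synthesis, was at 1.48, 2.20, 1.43 and 1.37 TPM in Lv-Ctrl replicates 1 to 4 and at 9.66, 9.33, 10.1 and 10.3 TPM in Lv-Piezo1 replicates 1 to 4. It rose in all 4 Lv-Piezo1 samples (log2 fold change 2.06, SE 0.10, limma, adjusted p = 3.8e-07). Dctd, the deaminase that makes deoxyuridylate, rose from 4.87 ± 1.08 to 14.4 ± 1.78 TPM (SD, n = 4 each; log2 fold change 1.41, SE 0.13, limma, adjusted p = 1.9e-05). Rrm2, the regulated subunit of ribonucleotide reductase, rose from 7.12 ± 0.682 to 17.0 ± 1.61 TPM (SD, n = 4 each; log2 fold change 1.15, SE 0.08, limma, adjusted p = 3.9e-06), and lay just under the fold threshold after median-ratio scaling, at 0.99.

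The nucleoside monophosphate kinases make the diphosphates on which the members act. Their list also held the uridine-cytidine kinases Uck1, Uck2 and Uckl1, which make monophosphates. Of 11 tested rows in the whole list 5 passed in the higher direction, 2 in the lower direction and 4 did not pass. The median log2 fold change was 0.11, and after median-ratio scaling 3 passed higher and 3 lower with a median of -0.065. Uck1 and Uck2 were among those that passed higher, at 0.26 and 0.54, and Uckl1 did not pass. After the scaling Uck2 still passed higher and Uck1 did not. Ak4, an adenylate kinase of the mitochondrial matrix, was the called gene of this list and rose from 3.16 ± 0.416 to 12.2 ± 0.202 TPM (SD, n = 4 each; log2 fold change 1.67, SE 0.08, limma, adjusted p = 2.4e-07). Guk1, which makes GDP, had 120 ± 11.4 and 120 ± 10.3 TPM (SD, n = 4 each), and Ak3, which uses GTP in the mitochondrial matrix, rose from 93.2 ± 6.21 to 114 ± 1.76 TPM (SD, n = 4 each; log2 fold change 0.29, SE 0.05, limma, adjusted p = 6.2e-04). After median-ratio scaling Ak3 no longer passed, at 0.11 (adjusted p = 0.20, limma).

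In purine synthesis 8 of 15 tested genes passed in the higher direction, 3 in the lower direction and 4 did not pass, with a median log2 fold change of 0.14, and after median-ratio scaling 4 passed higher and 4 lower with a median of -0.030. The salvage enzyme Hprt1 fell from 172 ± 5.97 to 127 ± 5.83 TPM (SD, n = 4 each; log2 fold change -0.43, SE 0.04, limma, adjusted p = 2.4e-05), whereas Aprt, which salvages adenine, had 225 ± 13.5 and 241 ± 14.4 TPM with overlapping groups and a log2 fold change of 0.10 that became -0.08 after median-ratio scaling. In pyrimidine synthesis 6 of 8 tested genes passed in the higher direction, 1 in the lower direction and 1 did not pass, with a median of 0.30, and after median-ratio scaling 4 passed higher and 1 lower with a median of 0.13. Umps, which makes UMP, rose from 45.1 ± 1.32 to 57.7 ± 2.36 TPM, and Ctps1, which makes CTP from UTP, rose from 40.0 ± 1.73 to 48.5 ± 1.89 TPM (SD, n = 4 each; limma, adjusted p = 7.8e-05 and 6.5e-04). Their log2 fold changes of 0.35 and 0.27 became 0.17 and 0.094 after median-ratio scaling (limma, adjusted p = 0.015 and 0.044).

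Nme3 acts at mitochondria, and 14 genes of mitochondrial fusion and fission were tested. Of these 7 passed in the higher direction, 2 in the lower direction and 5 did not pass. Across all tested genes 41.9% passed higher and 16.3% lower. None of the 14 was called with the fold threshold, and the median of 0.14 was that of all genes. After median-ratio scaling 2 passed higher and 4 lower. Fis1, an adaptor of fission, fell from 142 ± 10.8 to 100 ± 6.06 TPM (SD, n = 4 each; log2 fold change -0.50, SE 0.06, limma, adjusted p = 1.1e-04). Mff, another adaptor, had 111 ± 3.09 and 118 ± 2.53 TPM (SD, n = 4 each; log2 fold change 0.09, limma, adjusted p = 0.036), and its direction turned to -0.09 after median-ratio scaling. It also failed to pass without Lv-Ctrl replicate 1 or 2 (adjusted p = 0.058 and 0.085, limma) or without Lv-Piezo1 replicate 1 or 4 (adjusted p = 0.073 and 0.082, limma). The adjusted p was 0.37 after quantile normalization, 0.094 with the mitochondrially encoded genes left out and 0.078 without the trend in the moderation.

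In the list of mitochondrial succinyl-CoA ligase and nucleotide carriers, 9 genes were tested. Of these, 2 passed in the higher direction, 1 in the lower direction and 6 did not pass, with a median log2 fold change of 0.02. After median-ratio scaling 1 passed higher and 4 lower with a median of -0.15. The list also held Ckmt2, a mitochondrial creatine kinase that is neither a ligase subunit nor a nucleotide carrier. Ckmt2 was 1 of the 2, at 0.73, and the only gene higher after scaling, at 0.60 (limma, adjusted p = 6.1e-04 and 0.0014). Slc25a4, an ADP/ATP carrier, rose from 631 ± 12.9 to 717 ± 8.68 TPM (SD, n = 4 each; log2 fold change 0.18, limma, adjusted p = 2.5e-04), which did not pass after median-ratio scaling (0.01, adjusted p = 0.92, limma). Suclg1, a subunit of the ligase, had 192 ± 10.2 and 184 ± 3.25 TPM (SD, n = 4 each) and passed only after median-ratio scaling, at -0.24 (adjusted p = 0.0071, limma). The summed share of mitochondrially encoded genes in the TPM was 7.03% to 7.90% in the Lv-Ctrl samples and 6.05% to 6.53% in the Lv-Piezo1 samples (two-sided exact permutation test, p = 0.029, again the lowest possible). Its part in the values of the kinases was not tested.

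Of 7 tested genes listed as partners of Nme1, 3 passed in the higher direction, 1 in the lower direction and 3 did not pass, with a median of -0.05, and after median-ratio scaling 1 passed higher and 4 lower with a median of -0.23. Anp32a, a subunit of the SET complex, had 167 ± 12.9 and 155 ± 7.70 TPM, and Strap, a receptor-associated protein, had 118 ± 5.81 and 114 ± 3.09 TPM (SD, n = 4 each). Neither passed on the deposited values, and both passed after median-ratio scaling, at log2 fold changes of -0.28 and -0.23 (adjusted p = 0.019 and 3.0e-04, limma). Strap also passed after quantile normalization and without Lv-Ctrl replicate 3 (adjusted p = 0.040 and 0.044, limma). In the gamma-tubulin ring complex, to which Nme7 belongs, 4 of 10 tested genes passed in the higher direction, 1 in the lower direction and 5 did not pass, with a median of 0.13, and after median-ratio scaling 3 passed higher and 3 lower with a median of -0.022. Tubg1, the gamma-tubulin itself, rose from 34.5 ± 2.03 to 59.5 ± 1.36 TPM (SD, n = 4 each; log2 fold change 0.77, SE 0.05, limma, adjusted p = 1.2e-06), whereas Mzt1 had 14.3 ± 1.72 and 15.0 ± 1.92 TPM with overlapping groups.

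**Figure D3:**
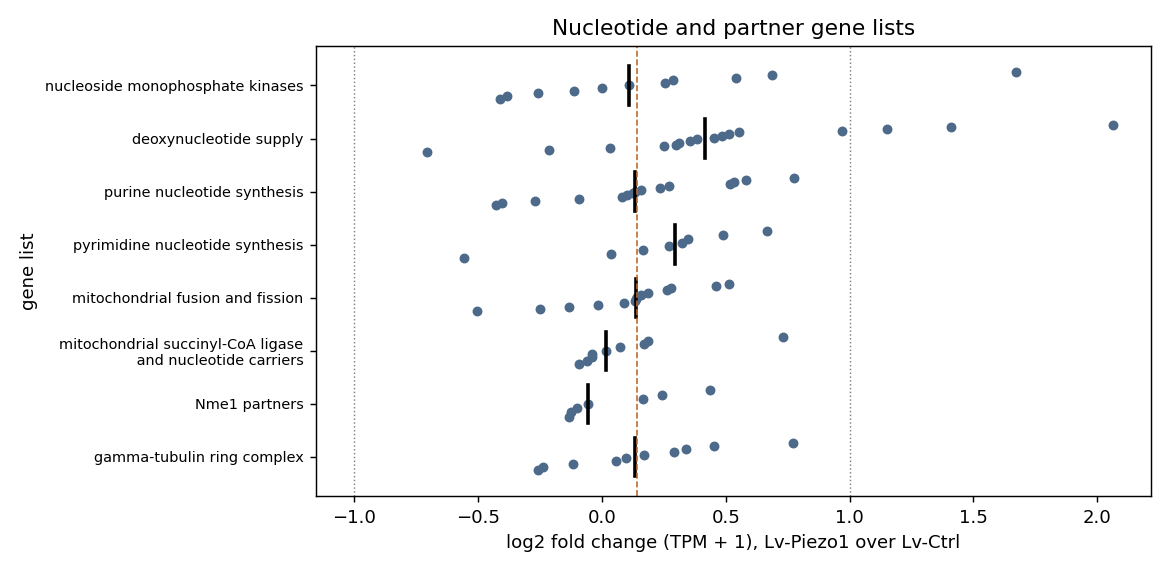
Log2 fold change on the log2(TPM + 1) scale, Lv-Piezo1 over Lv-Ctrl, of every tested gene of 8 lists; points are genes, black bars are list medians, dotted lines are the fold threshold of 1 in each direction and the dashed line is the median of all tested genes, 0.14. Points past the threshold are Ak4 among the monophosphate kinases and Shmt1, Dctd and Rrm2 in deoxynucleotide supply, of which Rrm2 falls just inside it after median-ratio scaling.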

How the data were processed

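RNA-seq of AFCs was available for 4 Lv-Ctrl and 4 Lv-Piezo1 samples. The authors deposited TPM values per gene, and their methods name HISAT2, StringTie and FPKM. The submitters' processing notes name mm10 and DESeq2 without a role, and the rat build is not given in the sources used here. Rows averaging 1 TPM or more were taken to log2(TPM + 1) and fitted with limma 3.58.1 (R 4.3.3), using moderated statistics with a mean-variance trend and Benjamini-Hochberg adjustment, after the script had been tested on simulated data. No block was used, and count models were not applied to TPM. Median-ratio factors came from rows above 0 in all samples. Factors from the tested genes alone were tried after the data had been seen, and give the second of the scaled values in the closing section.

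The members and lists were chosen with earlier results of these data known. Named genes were the members and their family, Piezo1, per list up to 3 called genes in each direction or, with fewer than 2 called, the 2 most abundant, the chromosomal neighbours of the members, and the 5 genes most like Nme3. Uck1, Uck2, Uckl1 and Ckmt2 were named outside this rule, after their values were seen, because of what they encode. Samhd1 was also named outside it, after its values were seen. Ak1, Prps1 and Hmgb2 were among the listed genes that matched no row and were not analysed here.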

Additional observations from a re-analysis of the deposited data

Results flagged for a closer look

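For the members, their family, Piezo1, the list genes named by rule, the neighbours, the genes most like Nme3, the cell markers, the kinase sum and the mitochondrial share, the lowest or highest sample of a group was compared with the other 3. The measure was its gap to the nearest value divided by the range of the group, against the critical value of Dixon's test. Of 192 groups checked, 17 passed it, and chance passes about 1 in 20 groups. In Lv-Ctrl replicate 3, Nme2 was high at 399 TPM, as were Nubp2 at 46.7 TPM, Gpha2 at 425 TPM and Ccdc39 at 1.94 TPM, and Mapk8ip3 was low at 29.1 TPM, as were Col3a1 at 168 TPM and Dcn at 1352 TPM. In the other Lv-Ctrl samples, Shmt1 at 2.20 TPM and Camp at 0.61 TPM were high in replicate 2, Kdr at 0.01 TPM in replicate 1 and Dnah5 at 0.01 TPM in replicate 4. In the Lv-Piezo1 samples, Suclg1 was low at 179 TPM in replicate 3, Acta2 at 1284 TPM in replicate 4 and Ccdc39 at 0.98 TPM in replicate 1. Tnmd was high at 0.08 TPM in Lv-Piezo1 replicate 4, and Ptprc at 0.01 TPM and Cdh5 at 0.06 TPM in replicate 2. For Tnmd, Ptprc, Cdh5, Kdr and Dnah5 the other samples of the group were listed at 0. Lv-Ctrl replicate 3 also held the lowest Nme3 value of its group, 28.5 TPM.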

How the results depend on the processing

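Piezo1 stayed higher with an adjusted p below 0.05 under each alternative run, at log2 fold changes of 0.21 to 0.43, and the mitochondrial share stayed lower in Lv-Piezo1 when each sample was left out in turn. The Nme3 log2 fold change was -7.64 with a pseudocount of 0.1, by construction of a scale that stretches low values, and -5.25 to -5.02 when each sample was left out. Genes called higher numbered 372 with a minimum mean of 5 TPM, where fewer genes are tested. Without the fold threshold 5489 genes were higher and 2137 lower, and 48 and 13 pathway genes. The difference of the summed kinases was -107 TPM after median-ratio scaling and -101 TPM with factors from the tested genes, an alternative chosen after the data were seen.

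With those 2 sets of factors, in this order, the log2 fold change reversed to -0.11 and -0.092 for Nme2, -0.078 and -0.063 for Nme6, -0.14 and -0.12 for Rp2, -0.076 and -0.060 for Aprt, -0.087 and -0.071 for Mff, -0.11 and -0.094 for Mzt1, -0.052 and -0.039 for Mbtd1, and -0.13 and -0.12 for the marker Lum. With the first set 3 pathway genes were called higher and with the second 4. Quantile normalization reversed Nme6 (-0.079), Rp2 (-0.19), Mzt1 (-0.12), Mbtd1 (-0.11) and Cramp1 (-0.0054). Leaving out the mitochondrially encoded genes reversed Rp2 (-0.0075). The cause was not tested. With each sample left out, log2 fold changes ran from -0.068 to 0.060 for Rp2, -0.043 to 0.062 for Guk1, -0.019 to 0.13 for Mzt1, -0.074 to 0.063 for Blzf1 and -0.070 to 0.032 for the marker Sox9, and the difference of the summed kinases without Nme3 from -9.44 to 13.7 TPM.

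With the replicate number as a replicate block, 644 genes were called higher and 360 lower, against 644 and 361. Same-numbered samples had correlations of deviations of -0.030, -0.058, -0.051 and -0.012, no sample correlated best with its own number, and the cells of an isolation were divided between treatments, but no source ties the sample numbers to isolations, so samples were not paired. With the block Mff kept its log2 fold change of 0.09, with an adjusted p of 0.068 (limma). Depth is unknown for TPM, which limits what the listed zeros of Nme3 can show. Rows above 0 numbered 16645 to 17022 in the Lv-Ctrl samples and 17191 to 17657 in the Lv-Piezo1 samples. The bearing of these numbers on the zeros was not tested.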
